A study of Arabidopsis thaliana with 222 samples.

Results

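Class III peroxidases are the plant-specific branch of the haem peroxidases, and the 59 genes described here are family members of Arabidopsis thaliana chosen by identifier. The choice was meant to leave out those best known from root hairs and from the Casparian strip, but it is not free of such genes. It still holds AT1G05240, known as a root hair peroxidase, and AT5G64100, which has been linked to root hair growth. It also holds RCI3 (AT1G05260), AT1G44970, AT4G11290 and AT5G66390, which are tied to endodermal lignin. The 59 were taken from a table of 32311 genes, all 59 were found, and 53 passed the filter on low counts that 21635 genes passed. The filter used the group sizes to set how many libraries must hold enough counts of a gene. A gene present in only a few groups can therefore pass, and genes with higher levels pass it more easily. In roots grown without bacteria the median level of the 53 was 45.5 CPM (a gene's count scaled to a common library size), against 15.2 CPM over all tested genes, so the peroxidases were also easier to call than the typical gene, and its part in the counts below was not tested.

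The study asked how single bacterial strains change root branching, and RNA was sequenced from roots of 14-day-old seedlings. Seeds germinated without microbes on 0.5x MS agar for 7 days, and about 10 seedlings at a time then grew for 7 more days on plates carrying 1 strain or only 10 mM MgCl2 (no bacteria, NB). The lateral root mutants were arf7 arf19 (loss of a pair of auxin response factors) with L344, nph4-1 (an allele of ARF7 alone) with L344, L359 or RCL115, lbd16-1 (a transcription factor acting after those factors) with RMF8, RMF217, L76, L180, L343, L359, L384 or L412, and gnom184 (a vesicle traffic regulator needed for auxin transport) with L196, L339, L469 or RMF27. The wild type Col-0 was grown with L180, L196, L264, L339, L343, L344, L359, L384, L412, L469, L76, RCL115, RMF217, RMF27, RMF331 or RMF8, and each of the 5 genotypes also with NB. That makes 37 groups of 6 libraries, 222 in all, each from about 10 pooled roots.

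Class III peroxidases are secreted enzymes that use hydrogen peroxide to oxidise phenolics in the cell wall. They polymerise lignin and suberin monomers, cross-link extensins and so stiffen walls, and in a second type of reaction they can themselves make reactive oxygen that loosens walls or serves as a defence signal. In roots, family members act in the Casparian strip and endodermal lignin, in root hairs, in the balance between dividing and elongating cells, and in xylem.

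Many members sit side by side as copies, which matters for reading the values because reads from identical stretches cannot be assigned. The first 90 coding bases of a pair whose coding sequences are 100% identical and of a pair that are 93.8% identical are shown for that reason, taken from the RefSeq genome TAIR10.1, with capitals for the bases at which the 2 genes of a pair differ. AT1G05240 lies at chr1:1521202-1521291 (plus strand), AT1G05250 at chr1:1527080-1527169 (minus strand), AT4G08770 (Prx37) at chr4:5600173-5600262 (minus strand) and AT4G08780 at chr4:5604153-5604242 (plus strand).
AT1G05240: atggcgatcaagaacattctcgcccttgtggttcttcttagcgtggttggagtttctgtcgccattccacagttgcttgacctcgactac
AT1G05250: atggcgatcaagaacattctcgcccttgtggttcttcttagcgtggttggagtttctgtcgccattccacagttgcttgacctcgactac
AT4G08770: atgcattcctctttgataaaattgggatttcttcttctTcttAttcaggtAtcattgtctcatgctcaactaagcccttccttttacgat
AT4G08780: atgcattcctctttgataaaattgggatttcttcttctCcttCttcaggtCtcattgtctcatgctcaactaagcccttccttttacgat

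No capital appears in the first pair and 3 in each gene of the second. Of the 31-base words in the AT1G05250 transcript, 100% also occur in that of AT1G05240, and 59.7% the other way round, so the 1001231 counts of AT1G05250 and the 626 of AT1G05240 cannot be told apart with certainty. AT1G05240 is known as a root hair peroxidase, and the values given under AT1G05250 may hold its reads. The other close pairs share fewer words, namely AT4G37520 and AT4G37530 (coding identity 92.4%), AT2G18140 and AT2G18150 (91.7%), AT2G38380 and AT2G38390 (90.6%) and AT3G49110 and AT3G49120 (PRXCA and PRXCB, 90.4%). AT2G43480, AT4G08780, AT4G25980, AT4G33420, AT5G14130, AT5G40150 and AT5G51890 overlap a gene on the other strand, and since no strand-specific step is stated their counts may include reads of that neighbour.

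Levels within the family spanned more than 3 orders of magnitude in Col-0 NB roots. Per kilobase of coding sequence, AT4G21960 (PRXR1) was highest at 1586 CPM per kb, followed by AT3G32980 at 1193, AT3G49120 (PRXCB) at 651, AT2G38380 at 590, AT2G37130 at 535 and AT5G64100 at 497. In the libraries PRXR1 (AT4G21960) ranged over 1467, 1555 and 1704 CPM (lowest, median, highest of 6), a narrow spread between libraries. The 6 untested genes were AT1G05240, AT2G18140 (413 counts over all libraries), AT3G50990 (461), AT5G58390 (61), AT5G58400 (7) and AT1G24110, which had 0 counts, allowing up to 0.00073 CPM over the pooled libraries, counting error only. Summed over the 59 genes, the level averaged 12124 ± 1053 CPM in Col-0 RMF27 roots, against 9423 ± 749 CPM in Col-0 NB roots (SD, n = 6 each), and over all groups the mean sum lay between 9147 CPM in lbd16-1 NB and 12779 CPM in gnom184 L196.

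Library totals ran between 10255732 and 29735838 counts, with a median of 18434824. Markers of root hairs (5 genes), endodermis (7), xylem (5) and shoot (5) were detected in every group, as the root label requires for the first 3 lists. Summed shoot markers passed 1000 CPM in 7 libraries, 1 each of arf7 arf19 L344, gnom184 L469, gnom184 RMF27, gnom184 NB, nph4-1 RCL115, lbd16-1 RMF217 and Col-0 L264. Counts below are also given without those 7 where they moved by more than 1.5 times. In whole roots, fewer cells of a type and less RNA per cell cannot be told apart. The study describes its libraries as independent biological replicates from a repeated experiment, but no label ties a library to a run. The p-values therefore measure the spread between these biological replicates, which may also hold differences between runs and technical variation.

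In Col-0, more peroxidases were called higher than lower with 14 of the 16 strains. All folds are log2 fold changes (strain over NB) with their standard error, fitted by edgeR's quasi-likelihood test over all genes, and a gene was called at a Benjamini-Hochberg adjusted p under 0.05. With RMF27, 23 of the 53 tested peroxidases were higher and 13 lower, against 21.8% and 22.6% of all genes. With L469 the counts were 21 higher and 9 lower, against 17.8% and 17.6% of all genes, with L264 20 and 10, against 17.1% and 16.7%, and with L344 17 and 9, against 15.8% and 15.6%. With L343 they were 19 and 12, against 17.4% and 17.9%, with RMF8 15 and 10, against 17.3% and 16.8%, and with L180 15 and 10, against 17% and 17%. The share called higher was thus above the background in each of these strains (43.4% with RMF27), while the share called lower lay close to it (24.5% with RMF27). The median fold of the 53 was 0.14 with RMF27, against -0.00 over all genes.

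The other strains were graded. With RMF217, 1 member was higher (AT3G49960, 0.61 ± 0.18) and 1 lower (AT4G37520, -0.39 ± 0.11), against 1.82% and 2.22% of all genes. With RCL115 edgeR called 0 members in either direction, against 0.129% and 0.337% of all genes, 6 members had an unadjusted p under 0.05, and DESeq2 also called 0. The remaining 7 strains gave 7 to 17 members higher and 4 to 10 lower, against 4.73 to 13.7% and 6.83 to 15% of all genes. Some of these counts rested on single Col-0 NB libraries. With L384, 11 were higher without NB replicate 1, against 17 with it. Without NB replicate 3 or 5, 2 were lower with L359 (4 with all libraries) and 2 with L412 (5 with all libraries, and 3 without NB replicate 4). With RMF217, 0 were higher without NB replicate 3 or 5, and 0 were lower without replicate 3. These 16 comparisons share the same 6 Col-0 NB libraries and are not independent of each other.

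**Figure D1:**
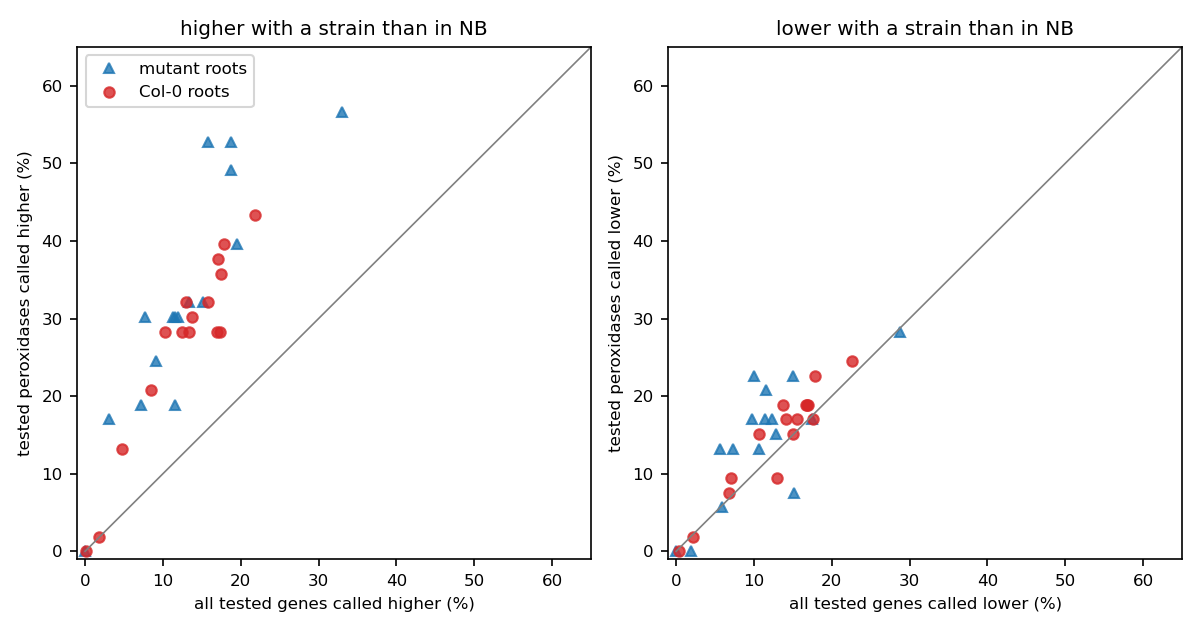
Percentage of the 53 tested peroxidases called (vertical axis) against the percentage of all 21635 tested genes called (horizontal axis), left for genes higher and right for genes lower with a strain than in NB; red circles are the 16 Col-0 comparisons, blue triangles the 16 mutant comparisons, and the grey line marks equal shares. In Col-0 with RMF27 the point lies at 43.4 against 21.8 on the left and at 24.5 against 22.6 on the right.

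**Figure D2:**
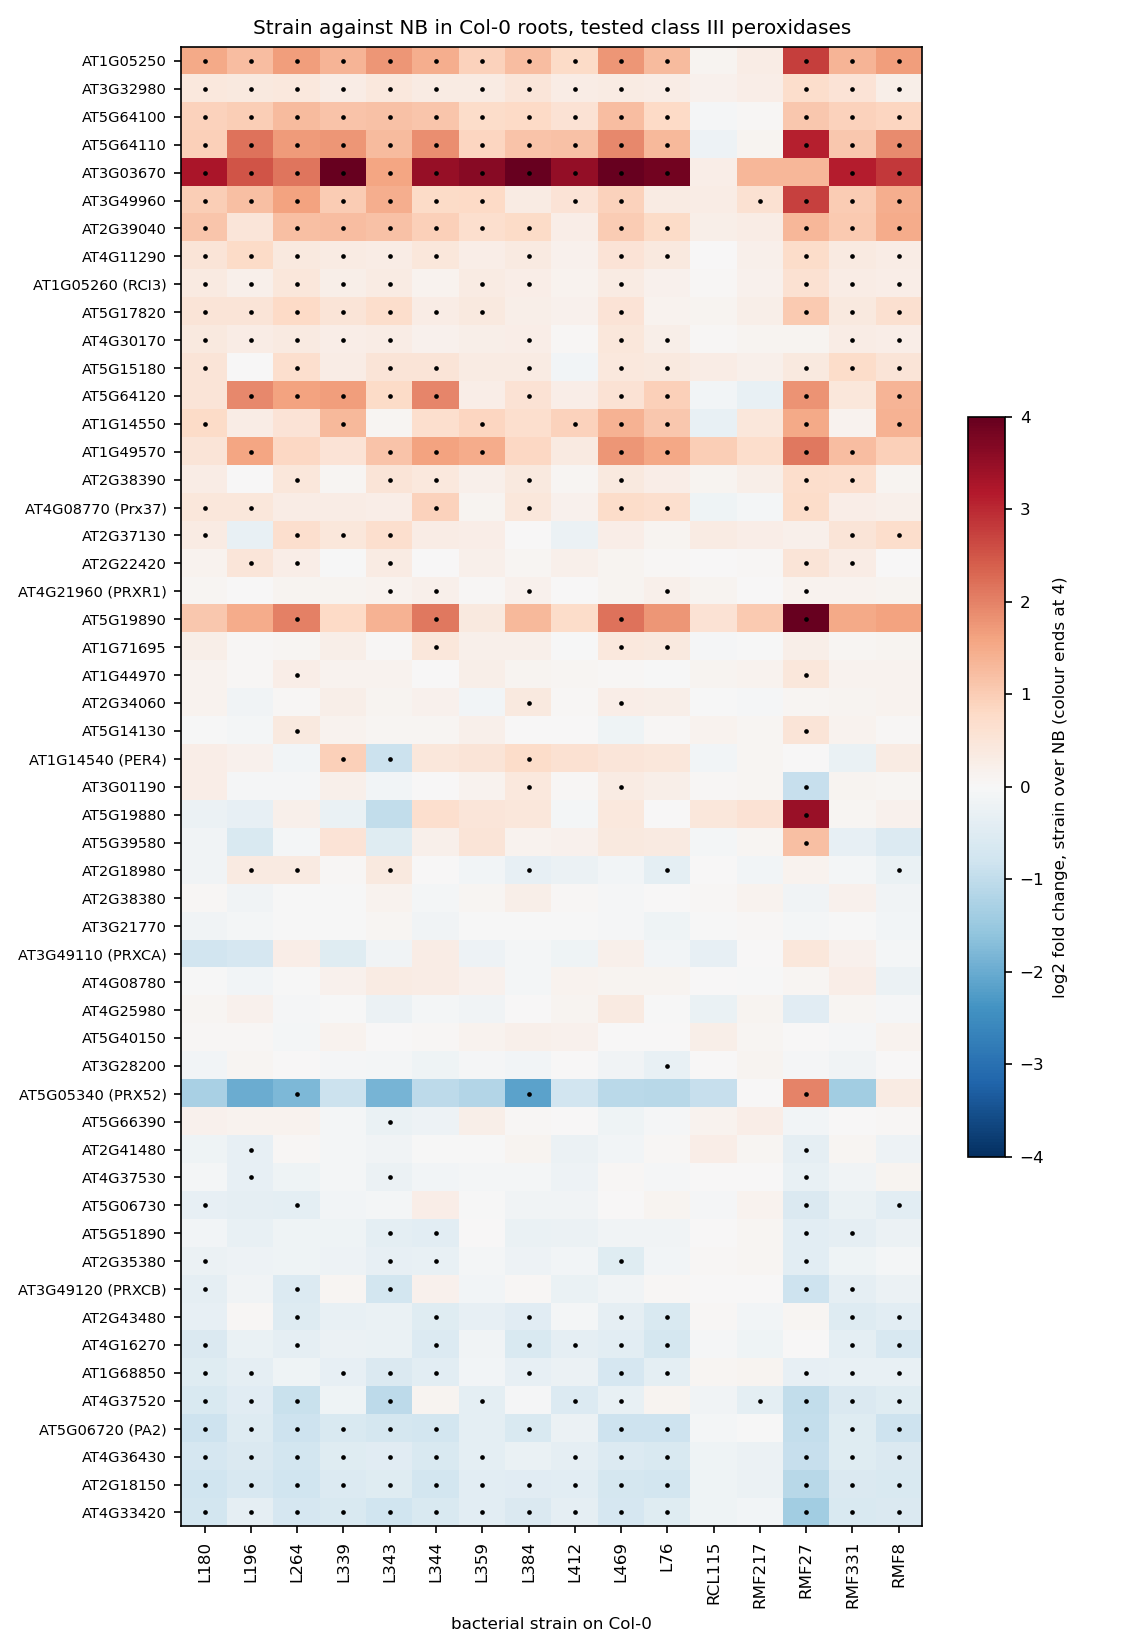
Log2 fold change (strain over NB, colour, ending at 4) of the 53 tested peroxidases in rows for the 16 strains on Col-0 in columns, with a black dot where the change was called; rows run from most often higher to most often lower. The RCL115 column holds no dot and the RMF27 column 36.

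Over the 16 Col-0 comparisons, 47 of the 53 were called at least once, against 73% of all genes. The 6 never called were AT2G38380, AT3G21770, AT3G49110 (PRXCA), AT4G08780, AT4G25980 and AT5G40150. Of the 47, 27 members were called only as higher, 16 only as lower and 4 in both directions. This split was not counted over all genes, and the 16 comparisons share their NB libraries. Over the 16 mutant comparisons, 52 of the 53 were called at least once, against 84.1% of all genes. Of the 52, 23 members were called only as higher, 11 only as lower and 18 in both directions. That split was not counted over all genes either. In at least 12 of the 16 Col-0 comparisons, 8 members were higher and 4 lower, against 4.72% and 5.47% of all genes.

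AT1G05250, AT5G64100, AT5G64110 and AT3G32980 were each higher in 14 of the 16, in all strains but RCL115 and RMF217. AT1G05250 had 526, 718 and 920 CPM in Col-0 RMF27 libraries (lowest, median, highest), against 69.4, 102 and 165 CPM in Col-0 NB libraries. Every RMF27 library stood above every NB library, and the fold was 2.78 ± 0.20 (adjusted p = 4.48e-29). With the other called strains its fold lay between 0.76 ± 0.19 (L412) and 1.77 ± 0.19 (L469).

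AT5G64100 and AT5G64110 are neighbours on chromosome 5, with AT5G64120 (PRX71, linked to lignin and to the limiting of cell expansion) beside them. AT5G64100, one of the listed genes that has been linked to root hair growth, had 898, 1063 and 1208 CPM in RMF27 roots, against 292, 504 and 625 CPM in NB roots (1.08 ± 0.14). AT5G64110 had 26.9, 32.9 and 40.2 CPM in RMF27 roots, against 3.01, 3.46 and 6.32 CPM in NB roots (3.10 ± 0.23). Neither gene's RMF27 libraries overlapped the NB libraries. AT5G64120 was higher in 10 of the 16, by 1.81 ± 0.23 with RMF27 and 1.91 ± 0.23 with L196.

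AT3G32980, a close relative of PRXCB and the second most abundant member, moved little but regularly. It had 1770, 2016 and 2388 CPM in RMF27 roots, against 1152, 1266 and 1373 CPM in NB roots (0.70 ± 0.09), again without overlap, and 0.24 to 0.55 with the other strains in which it was called. AT4G11290, which contributes to endodermal lignin and is a target of the root growth regulator UPB1, was higher in 12 of the 16. Its levels were 118, 124 and 157 CPM in RMF27 roots, against 69.7, 78.2 and 85.6 CPM in NB roots (0.73 ± 0.10), and the groups did not overlap.

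AT3G49960 was higher in 13 of the 16 and AT2G39040 in 12. AT3G49960, a close relative of the root hair peroxidase AT5G67400 (RHS19, coding identity 78.7%), had 197, 236 and 255 CPM in RMF27 roots, against 23.8, 35.8 and 44.4 CPM in NB roots (2.73 ± 0.19). AT2G39040 had 36.2, 38.1 and 49.3 CPM in RMF27 roots, against 4.66, 16.7 and 23.2 CPM in NB roots (1.33 ± 0.18). All RMF27 libraries of both genes lay above all NB libraries.

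AT3G03670 followed another order of strains. It was higher in 13 of the 16, most with L384 (4.39 ± 0.51), L469 (4.35 ± 0.51) and L339 (4.07), whereas RMF27, RMF217 and RCL115 were not called. In L469 roots it had 15.8, 26.8 and 48.6 CPM and in L384 roots 29.7, 31.5 and 34 CPM, against 0.225, 1.18 and 3.79 CPM in NB roots. With RMF27 it had 0.631, 4.31 and 6.25 CPM, overlapping NB, and 1.32 ± 0.64 (adjusted p = 0.0817). That call depended on the method, since DESeq2 gave 1.26 (adjusted p = 0.0196) and leaving out NB replicate 2 gave an edgeR adjusted p of 0.0467.

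**Figure D3:**
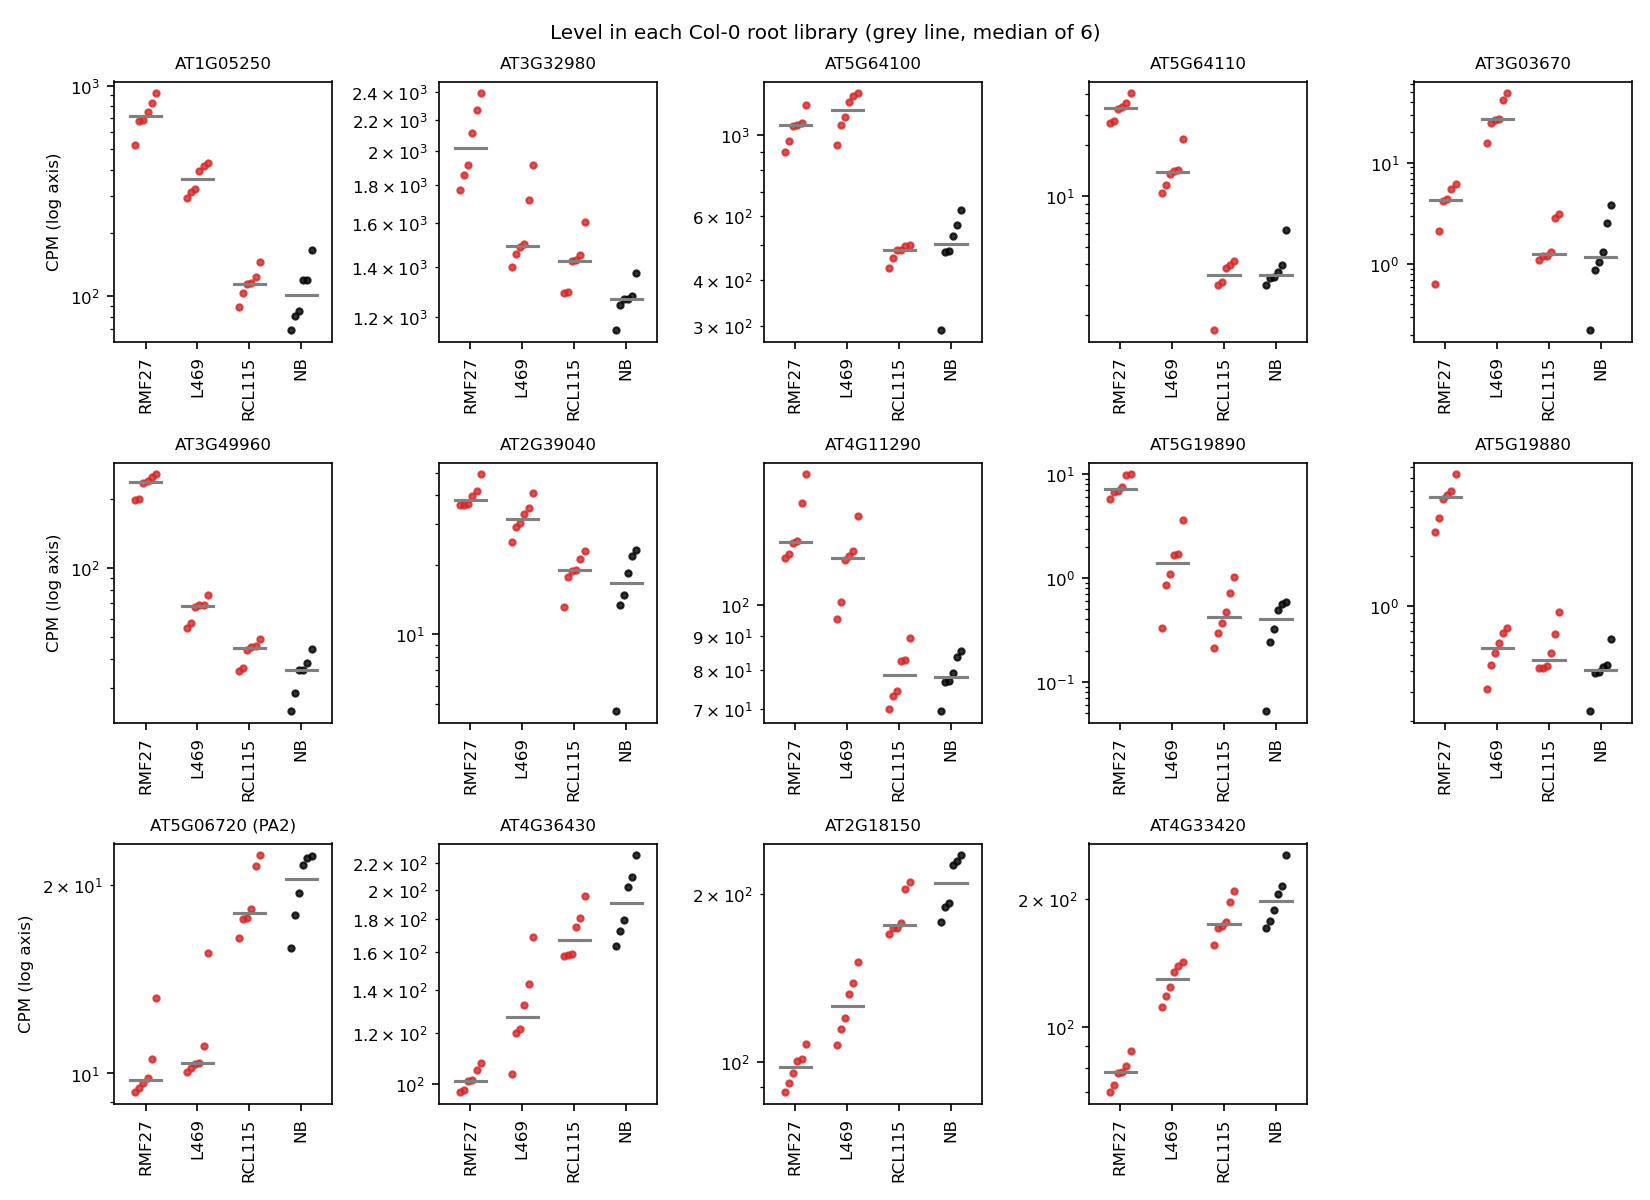
CPM (log axis) in each Col-0 library with RMF27, L469, RCL115 and NB for the 14 peroxidases named by the rules on 12 of 16 strains or on the 5 largest RMF27 changes; points are libraries and grey lines medians of 6. AT1G05250 lies between 526 and 920 CPM in RMF27 libraries, against 69.4 to 165 CPM in NB libraries, and AT4G33420 between 70.1 and 87.4 CPM, against 171 to 254 CPM.

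The largest folds with RMF27 belonged to a neighbouring pair on chromosome 5 that was scarce elsewhere. AT5G19890 had 5.77, 7.24 and 9.99 CPM in RMF27 roots, against 0.0528, 0.405 and 0.584 CPM in NB roots (4.47 ± 0.58, adjusted p = 1.4e-11). AT5G19880 had 2.81, 4.6 and 6.31 CPM in RMF27 roots, against 0.229, 0.408 and 0.629 CPM in NB roots (3.45 ± 0.27). Both pairs of groups were separate. AT5G19880 was called with no other strain, and AT5G19890 with L264, L344 and L469, by 2.03 to 2.16, in libraries that overlapped NB. PRX52 (AT5G05340), which acts in stem lignin, was also higher with RMF27 (1.97 ± 0.47, 1.19, 4.58 and 9.79 CPM, against 0.317, 0.753 and 3.02 CPM in NB) and lower with L264 and L384, at levels that overlapped throughout.

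Of the 12 named by how often they were called, 4 fell. AT4G33420, linked to lignin of xylem and stem, was lower in 14 of the 16 and had 70.1, 77.9 and 87.4 CPM in RMF27 roots, against 171, 198 and 254 CPM in NB roots (-1.38 ± 0.09, adjusted p = 2.42e-31). AT2G18150 was also lower in 14, with 88.3, 98 and 107 CPM in RMF27 roots, against 178, 209 and 235 CPM in NB roots (-1.10 ± 0.15). AT4G36430 was lower in 13, with 97.1, 101 and 108 CPM in RMF27 roots, against 163, 191 and 226 CPM in NB roots (-0.92 ± 0.13). In all of them each RMF27 library lay below each NB library.

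AT2G18150 and AT4G36430 are known from the lignin that CIF peptides and the SCHENGEN receptor pathway place in the endodermis when its barrier is broken. AT5G06720 (PA2), a defence-related peroxidase, was lower in 12 of the 16, with 9.35, 9.75 and 13.2 CPM in RMF27 roots, against 15.9, 20.4 and 22.2 CPM in NB roots (-0.95 ± 0.15). Across the 37 group means, on a log2(CPM + 1) scale, AT2G18150 and AT4G36430 had a Pearson r of 0.99, and AT5G06720 had 0.95 and 0.94 with them. The points of such correlations share NB libraries, genotypes and strains and are given as a description. AT2G18150 and AT4G36430 lie on different chromosomes, are 80.1% identical in coding sequence and share no 31-base word.

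The 250 bases before each gene's start are shown for these 2 genes because no other pair of members had so high an r. They are AT2G18150 at chr2:7893710-7893959 (minus strand) and AT4G36430 at chr4:17206034-17206283 (minus strand) of TAIR10.1, 5′ to 3′, with capitals for runs of at least 10 bases found in both.
AT2G18150: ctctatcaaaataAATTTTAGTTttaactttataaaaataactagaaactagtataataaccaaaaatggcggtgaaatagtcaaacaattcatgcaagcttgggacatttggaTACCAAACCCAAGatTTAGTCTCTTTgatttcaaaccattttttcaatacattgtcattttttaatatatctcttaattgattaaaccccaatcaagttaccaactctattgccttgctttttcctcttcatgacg
AT4G36430: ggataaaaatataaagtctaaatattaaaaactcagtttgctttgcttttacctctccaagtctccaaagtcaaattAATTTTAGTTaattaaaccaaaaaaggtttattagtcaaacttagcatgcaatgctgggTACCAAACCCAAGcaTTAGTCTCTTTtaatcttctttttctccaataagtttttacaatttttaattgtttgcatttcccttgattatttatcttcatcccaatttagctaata

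The 3 shared runs cover 34 of the 250 bases, and the last 2 follow each other in both genes with 2 bases between them. Searched on both strands, TACCAAACCCAAG occurred in 2 of 27443 promoters of that length (0.00729%), which are these 2, TTAGTCTCTTT in 14 (0.051%) and AATTTTAGTT in 222 (0.809%), these 2 among them. By comparison, AT5G64100 and AT5G64110 share no such run, nor do AT1G05250 and AT3G49960. Some tandem pairs with a lower r over the groups share longer runs than any shown here. Among them are AT4G08770 and AT4G08780 (r of 0.32) and AT2G38380 and AT2G38390 (r of 0.44), so shared runs are not particular to the pair shown. The W-box core TTGAC, searched on both strands, was present in 42.4% of the 59 promoters, against 44.9% of all 27443, the G-box CACGTG in 1.69%, against 6.49%, the GCC box GCCGCC in 3.39%, against 1.87%, and the root hair element in 3.39%, against 0.754%. The last 3 shares rest on 1, 2 and 2 of the 59 promoters.

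The order of strains was close to that of root hair genes for some members. The 5 root hair markers (EXPA7, COBL9, PRP3, EXPA18 and LRX1) summed to 1022, 1305 and 1546 CPM in Col-0 RMF27 libraries, against 165, 238 and 284 CPM in Col-0 NB libraries. With RMF27 5 of 5 were called higher, against 21.8% of all genes. Over the 37 group means, the Pearson r with the mean root hair marker level was 0.96 for AT3G49960, 0.93 for AT5G17820 (a UPB1 target), 0.90 for AT1G05250 and 0.74 for AT5G64110, and -0.88 for AT4G33420. Without the 2 groups farthest from the median marker level, which were Col-0 RMF27 and gnom184 RMF27, these were 0.94, 0.93, 0.91, 0.59 and -0.82. The xylem markers moved the other way with RMF27, summing to 279, 290 and 357 CPM, against 367, 387 and 502 CPM in NB. With RMF27 5 of 5 were called lower, against 22.6% of all genes. No other strain on Col-0 had any xylem marker called lower. Instead IRX3 was higher in 9 strains, CESA4 in 8 and IRX1 in 6, while XCP1 and XCP2 were higher in 0. The part of either cell type in the peroxidase changes was not tested.

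**Figure D4:**
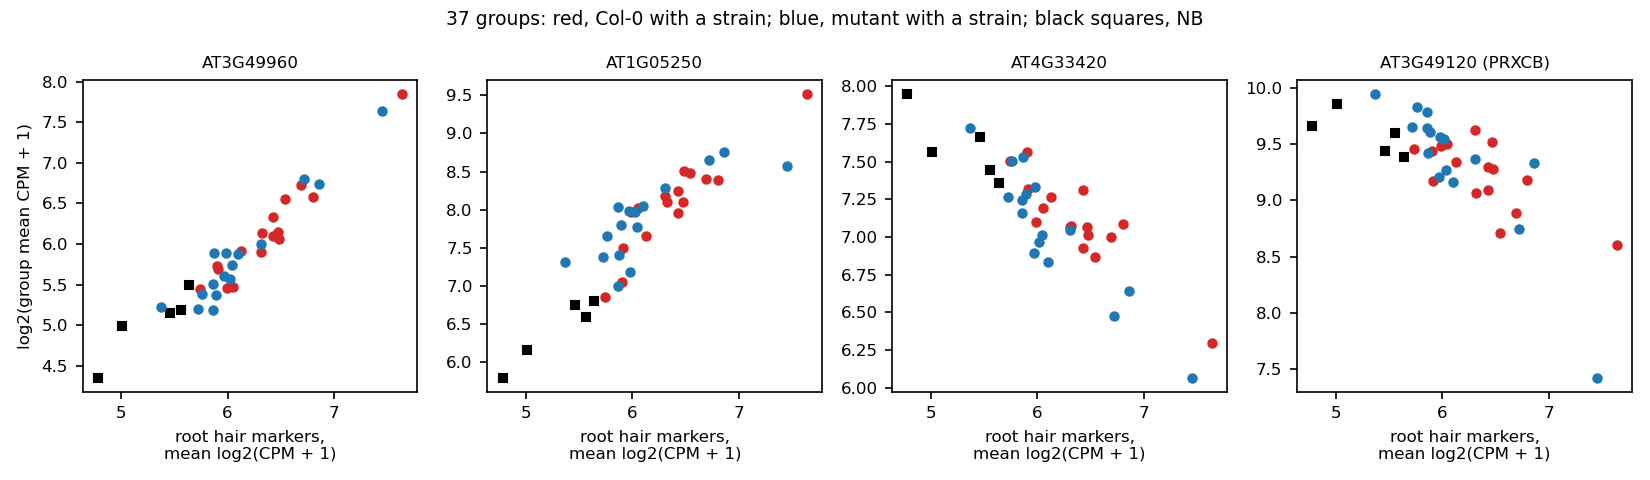
Group mean of AT3G49960, AT1G05250, AT4G33420 and AT3G49120 (PRXCB), as log2(CPM + 1), against the mean of 5 root hair markers in the 37 groups; red is Col-0 with a strain, blue a mutant with a strain, black squares NB. The Pearson r values over the 37 points are 0.96, 0.90, -0.88 and -0.76.

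The members were also grouped by known role. With RMF27 in Col-0, 21.8% of all genes were higher and 22.6% lower. Of 8 members tied to the oxidative burst and defence, 4 were higher with RMF27 in Col-0 (AT1G14550, AT5G64120, AT4G08770 or Prx37, and AT5G39580) and 2 lower (PRXCB and PA2), with a median of 0.59, against -0.00 over all genes. PRXCB (AT3G49120), which makes hydrogen peroxide in response to microbial patterns, was lower with 5 of the 16 strains and higher with 0. It had 294, 358 and 530 CPM in RMF27 roots, against 589, 714 and 766 CPM in NB roots (-0.84 ± 0.11), without overlap. Its neighbour PRXCA (AT3G49110) had only 0.523 CPM in NB roots, and was not called with any strain. PER4 (AT1G14540) was unlike its neighbour AT1G14550, at 0.03 ± 0.23 with RMF27, against 1.51 ± 0.28 for AT1G14550.

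The 4 endodermal lignin partners of PRX64 were RCI3 (AT1G05260), AT1G44970, AT4G11290 and PRX72 (AT5G66390), and 3 of them were higher with RMF27. RCI3 was higher in 11 of the 16 strains (0.62 ± 0.08 with RMF27), AT1G44970 in 2 (0.46 ± 0.11), and PRX72 in 0 and lower in 1 (-0.11 ± 0.10 with RMF27, not called). Of the 7 endodermis markers, 3 were called higher with RMF27. Of the 7 members linked to xylem and stem lignin, 3 were higher with RMF27 (AT2G22420, AT5G05340 and AT5G64120) and 3 lower (AT2G41480, AT4G33420 and AT5G51890). The background for these lists with RMF27 is 21.8% of all genes higher and 22.6% lower. AT1G68850 was lower in 11 of the 16 and AT4G37520 in 11 (-0.98 ± 0.11 with RMF27 for AT4G37520).

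Genes outside the list were taken from the rest of the family and from the enzymes that supply superoxide. All 5 root hair peroxidases outside the list (AT1G30870, AT1G34510, AT4G26010, AT5G22410 and AT5G67400) were higher in 12 to 15 of the 16, against 4.72% of all genes higher in at least 12. The NADPH oxidase RBOHD, the main source of superoxide in defence, was lower in 13 (-0.56 ± 0.08 with RMF27), and RHD2 (RBOHC), the oxidase of growing root hairs, was higher in 11 (0.55 ± 0.09 with RMF27). RBOHF, another NADPH oxidase, was higher in 2. Of 4 further family members outside the list that were tested, PER64, the Casparian strip peroxidase, and AT4G33870 were each higher in 8 and AT5G24070 in 2, while AT5G47000 was lower in 10.

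Without bacteria, the mutants already differed from Col-0. In arf7 arf19 NB roots 19 of the 53 were higher and 19 lower than in Col-0 NB roots, against 20.9% and 25.6% of all genes. In gnom184 NB 11 were higher and 21 lower, against 14.7% and 17.3%. In lbd16-1 NB 2 were higher and 5 lower, against 2.47% and 4.31%, and in nph4-1 NB 2 and 2, against 6.1% and 7.14%. These comparisons too share the Col-0 NB libraries.

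AT4G08780 was the member that fell most in arf7 arf19. It had 0.565, 0.996 and 4.19 CPM in arf7 arf19 NB libraries, against 6.94, 10.4 and 12.2 CPM in Col-0 NB libraries (-2.67 ± 0.25), with no overlap. In gnom184 NB it had 1.04, 4.12 and 6.66 CPM (-1.36 ± 0.21). Its tandem copy Prx37 (AT4G08770) had 28.1, 38.6 and 48.1 CPM in arf7 arf19 NB, against 36.3, 45.2 and 59.3 CPM in Col-0 NB, and was not called there.

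The other large decreases in arf7 arf19 NB were AT2G43480 (-1.68 ± 0.17), AT4G16270 (-1.54 ± 0.15), AT5G15180 (-1.17 ± 0.14), AT1G71695 (-1.13 ± 0.13) and AT3G01190 (-1.07 ± 0.11). AT4G16270, a UPB1 target, had 2.85, 3.94 and 5.26 CPM there and 3.54, 4.52 and 7.62 CPM in gnom184 NB, against 8.88, 12.6 and 13.5 CPM in Col-0 NB, and neither mutant overlapped Col-0. All 4 endodermal lignin partners were lower in arf7 arf19 NB and 3 of 4 in gnom184 NB, against 25.6% and 17.3% of all genes. So were 7 of 7 endodermis markers in arf7 arf19 NB, where they summed to 146, 189 and 269 CPM, against 251, 356 and 393 CPM in Col-0 NB, and 6 of 7 in gnom184 NB. Over the 37 groups, AT5G15180, AT1G44970, AT4G30170 and RCI3 (AT1G05260) had a Pearson r of 0.90, 0.85, 0.84 and 0.81 with the endodermis markers. Among the other members named in this paragraph, it was 0.81 for AT1G71695, 0.74 for AT4G16270 and 0.73 for PRX72 (AT5G66390). It was lower for AT3G01190 (0.49), AT4G11290 (0.45) and AT2G43480 (0.44). RCI3 and AT1G44970 each also had 0.77 with the root hair markers, and the means of these 2 marker lists had 0.61 with each other. The part of the endodermis in these decreases was not tested.

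The increases in arf7 arf19 NB included abundant members. AT2G38380 had 1254, 1356 and 1492 CPM, against 542, 622 and 696 CPM in Col-0 NB (1.14 ± 0.12), and its neighbour AT2G38390 had 418, 484 and 533 CPM, against 194, 235 and 257 CPM (1.08 ± 0.13). Neither pair of groups overlapped. In gnom184 NB the neighbours parted, with AT2G38380 higher (0.50 ± 0.12) and AT2G38390 lower (-0.52 ± 0.13). PRXR1 (AT4G21960) was higher in both arf7 arf19 NB (0.53 ± 0.06) and gnom184 NB (0.34 ± 0.06). Shoot markers, of which 4 of 5 were called higher in arf7 arf19 NB and 3 of 5 in gnom184 NB, moved with these genotypes, and without the libraries high in shoot markers the counts were 20 higher and 18 lower in arf7 arf19 NB and 11 and 21 in gnom184 NB.

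AT2G18150 and AT4G36430 did not move in one direction over the mutants. They were higher in arf7 arf19 NB (0.74 ± 0.14 and 0.65 ± 0.13) and gnom184 NB (0.81 ± 0.14 and 0.65 ± 0.13), and lower in lbd16-1 NB (-0.56 ± 0.14 and -0.54 ± 0.13). In nph4-1 NB AT2G18150 was lower (-0.41 ± 0.14, edgeR adjusted p = 0.042) and AT4G36430 was not called (-0.34 ± 0.13, adjusted p = 0.0603). AT2G18150 had 285, 364 and 399 CPM in arf7 arf19 NB and 120, 138 and 174 CPM in lbd16-1 NB, against 178, 209 and 235 CPM in Col-0 NB. Neither arf7 arf19 NB nor lbd16-1 NB overlapped Col-0 NB, whereas gnom184 NB did (177 to 443 CPM).

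With bacteria, each mutant was compared with its own NB roots. In at least 12 of the 16 mutant comparisons, 6 members were higher, against 3.06% of all genes, and 2 lower, against 2.79%. The 6 were AT1G05250, Prx37 (AT4G08770), AT5G64100 and AT5G64110 with 15 each, AT5G64120 with 14 and AT3G03670 with 13, and the 2 were AT5G06720 (PA2) with 13 and AT4G33420 with 12. Prx37, tied to growth and lignin, was called higher in 7 of the 16 Col-0 comparisons. The strains of the Col-0 and mutant comparisons are not the same, and its difference of response between mutant and Col-0 was called in 3 of 16. With RCL115 in nph4-1, edgeR called 0 members, against 0.00462% of all genes higher and 0% lower, and 3 had an unadjusted p under 0.05.

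In gnom184 with RMF27, 30 members were higher and 15 lower than in gnom184 NB, against 33% and 28.8% of all genes, and with L469 28 and 8, against 15.8% and 12.8%. The share higher with L469 (52.8%) lay well above its background. In arf7 arf19 with L344, 21 were higher and 12 lower, against 19.5% and 15%. The other 12 mutant comparisons besides RCL115 gave 9 to 28 members higher and 0 to 12 lower, against 3.02 to 18.8% and 1.95 to 17.4% of all genes. The lowest count, in lbd16-1 with RMF217, was 2 lower without the libraries high in shoot markers.

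Of the 8 oxidative burst and defence members, 1 to 6 were higher and 0 to 3 lower over the mutant comparisons other than RCL115. The most higher were in gnom184 L469, with 6 higher and 1 lower, against 15.8% and 12.8% of all genes. In lbd16-1 L76 it was 5 and 1, against 11.3% and 9.7%, and no difference between mutants and Col-0 was tested for the list. In lbd16-1 L76, AT5G39580 had 13.9, 31.2 and 83.1 CPM, against 6.67, 7.93 and 8.54 CPM in lbd16-1 NB (2.28 ± 0.26), and its response differed from that of Col-0 by 1.91 ± 0.38 (edgeR adjusted p = 0.0011). AT1G14550 had 10, 15.4 and 29.5 CPM in lbd16-1 L76, against 2.98, 4.04 and 5.17 CPM in lbd16-1 NB (2.04 ± 0.26). Both genes' groups were separate, with a wide spread among the L76 libraries.

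Whether a mutant responded otherwise than Col-0 was tested as a difference between the 2 responses. Over all genes both directions were counted together, so the splits by direction below have no background. The NB libraries also enter the comparisons of mutant NB with Col-0 NB, with the opposite sign. The median difference of the 53 was 0.05 for RMF27 in gnom184, against 0.03 over all genes, and 0.34 for L196, against 0.00. For L339 it was 0.21, against 0.02, and for L344 in arf7 arf19 -0.10, against 0.02. For RMF27 in gnom184, 19 members differed, against 22.7% of all genes, 13 with a more positive response in gnom184 and 6 with a more negative one. AT2G41480 (PRX25, linked to lignin) differed most, by -1.67 ± 0.17 (adjusted p = 2.53e-16). It had 22.9, 32.1 and 41.1 CPM in gnom184 RMF27, against 121, 129 and 148 CPM in gnom184 NB, and 47.4, 49.9 and 63.4 CPM in Col-0 RMF27, against 54.6, 67 and 87.6 CPM in Col-0 NB. The gnom184 groups were far apart and the Col-0 groups overlapped, and gnom184 NB stood above Col-0 NB at the start (0.93 ± 0.11).

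PRXCB (AT3G49120) also fell further in gnom184, with a difference of -1.40 ± 0.16. It had 137, 175 and 212 CPM in gnom184 RMF27, against 679, 822 and 877 CPM in gnom184 NB (-2.24 ± 0.12), and gnom184 RMF27 had the lowest of the 37 group means. Unlike AT2G41480, it was also separate in Col-0 (-0.84 ± 0.11), and gnom184 NB was not called against Col-0 NB (0.22 ± 0.11). AT4G08780 went the other way, with a difference of 1.57 ± 0.28. It had 8.26, 11.7 and 17.6 CPM in gnom184 RMF27, against 1.04, 4.12 and 6.66 CPM in gnom184 NB, and 8.31, 11.2 and 11.8 CPM in Col-0 RMF27, against 6.94, 10.4 and 12.2 CPM in Col-0 NB. The gnom184 groups were separate, whereas the Col-0 groups overlapped each other and the gnom184 RMF27 libraries.

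**Figure D5:**
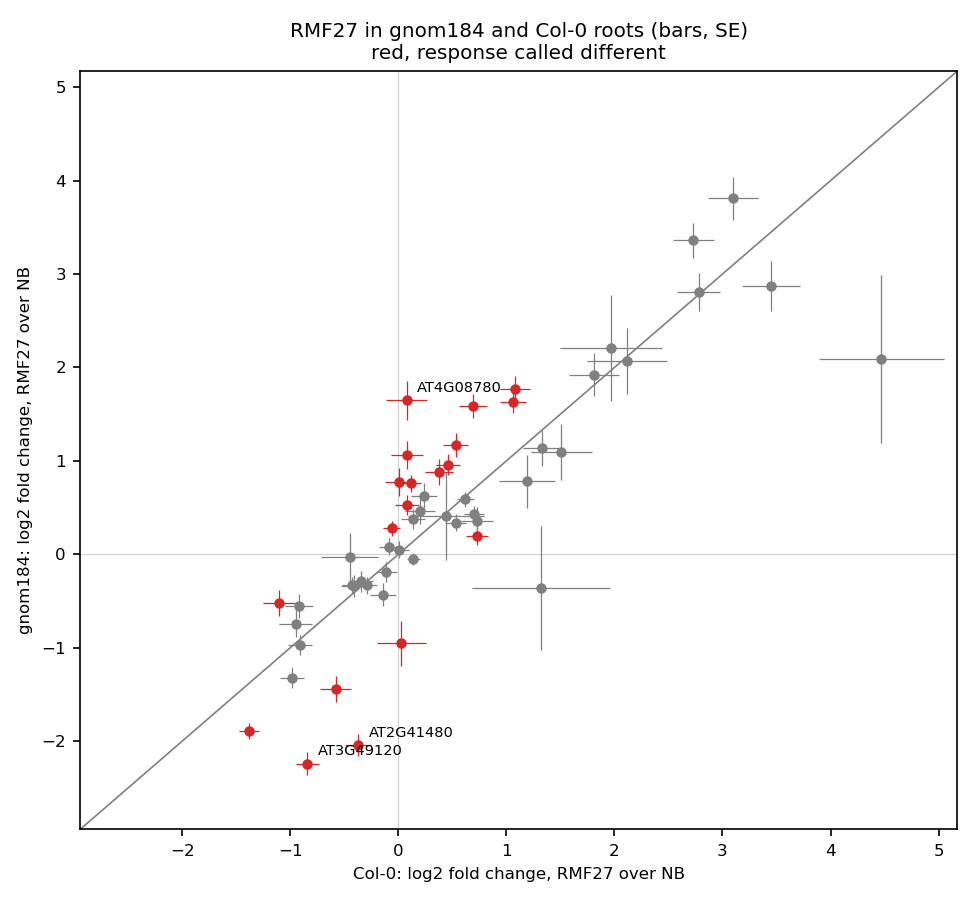
Log2 fold change with RMF27 over NB of the 53 tested peroxidases in gnom184 (vertical axis) and Col-0 (horizontal axis), with standard errors as bars; red points are the 19 whose responses differed and the grey line marks equal responses. AT2G41480 and AT3G49120 lie below the line, at -2.04 and -2.24 in gnom184, against -0.37 and -0.84 in Col-0, and AT4G08780 above it.

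With L196 in gnom184, 13 members differed from Col-0, against 6.73% of all genes, and 12 of the 13 were more positive in gnom184. With L339 11 differed, against 16.6%, 10 of them more positive. AT4G08780 was again among them, by 1.76 ± 0.28 with L196 and 1.45 ± 0.28 with L339. AT5G64100 had 843, 1182 and 2350 CPM in gnom184 L196, against 278, 350 and 588 CPM in gnom184 NB (difference from the Col-0 response 0.99 ± 0.20). AT5G64120 had 376, 860 and 2060 CPM in gnom184 L196, against 85.2, 121 and 250 CPM in gnom184 NB (difference 1.02 ± 0.31), separate groups with a wide spread. With L469 2 members differed, against 1.79% of all genes, and 5 without the libraries high in shoot markers.

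With L344, 18 members differed between arf7 arf19 and Col-0, against 14.8% of all genes, 12 of them more negative in arf7 arf19. AT4G08780 differed by -2.20 ± 0.47, with 0.223, 0.39 and 0.605 CPM in arf7 arf19 L344, against 0.565, 0.996 and 4.19 CPM in arf7 arf19 NB, and 9.27, 11.5 and 17 CPM in Col-0 L344, against 6.94, 10.4 and 12.2 CPM in Col-0 NB. The arf7 arf19 groups overlapped slightly, and all 12 of those libraries were below all Col-0 libraries. The neighbours AT5G06720 (PA2) and AT5G06730 differed by -1.32 ± 0.21 and -1.43 ± 0.19. AT5G06720 had 5.83, 9.08 and 13.4 CPM in arf7 arf19 L344, against 32.5, 37.2 and 45.9 CPM in arf7 arf19 NB, and AT5G06730 had 5.89, 9.34 and 11.5 CPM, against 15.2, 21.4 and 23.9 CPM. Neither overlapped.

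AT3G01190 differed the other way, by 1.06 ± 0.16. It had 329, 433 and 553 CPM in arf7 arf19 L344, against 143, 209 and 278 CPM in arf7 arf19 NB, and the Col-0 libraries had 409 to 488 CPM with L344 and 283 to 509 CPM in NB. The arf7 arf19 L344 libraries lay above the arf7 arf19 NB libraries and overlapped both Col-0 groups.

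Tandem neighbours ranged widely in likeness over the 37 groups. The Pearson r was 0.79, 0.77 and 0.74 among AT5G64100, AT5G64110 and AT5G64120, 0.83 for AT1G05250 and AT1G05260, 0.75 for AT5G06720 and AT5G06730, 0.68 for AT1G14540 and AT1G14550 and 0.67 for AT4G37520 and AT4G37530. It was 0.45 for AT5G19880 and AT5G19890, 0.44 for AT2G38380 and AT2G38390, 0.32 for AT4G08770 and AT4G08780 and -0.10 for AT3G49110 and AT3G49120. Over all 1378 pairs of tested members the median r was 0.04, with values between -0.84 and 0.99. High values among pairs that are not neighbours included AT3G49960 and AT5G17820 (0.89), RCI3 (AT1G05260) and AT1G44970 (0.86) and PRXCB (AT3G49120) and AT4G37520 (0.84), and AT4G33420 had -0.84 with both AT1G05250 and AT3G49960.

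The libraries carry numbers in their titles, and each group had 3 numbers from 1 to 111 and 3 from 112 to 222. With that range as a term, 6989 of the 21635 tested genes and 22 of the 53 members differed between the ranges. Several RMF27 responses were of like size within each range, with log2 ratios of mean CPM in Col-0 of 3.01 and 2.51 for AT1G05250, 2.85 and 2.60 for AT3G49960, -1.34 and -1.42 for AT4G33420 and 4.42 and 4.34 for AT5G19890 (lower range first, 3 against 3). Others were not, among them AT3G03670 at 1.87 and 0.38 and AT2G41480 at -0.70 and -0.02. In gnom184 this held for AT2G18150 at -0.89 and -0.16, AT4G36430 at -0.94 and -0.19, AT5G06720 at -1.22 and -0.35, and AT3G03670 at 0.10 and -1.01.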

How the data were processed

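RNA was extracted from roots, polyA-selected and sequenced as paired reads of 100 bases. Per the labels and the study's methods the authors trimmed with fastp 0.20.1, quantified with Salmon 1.6.0 against Ensembl Plants 52 and summed transcripts to genes with tximport; the deposited table holds these estimated counts per gene, not normalized, and no strand setting is given in the sources used here. The values, whole numbers in that table, were fitted with edgeR 4.0.16 (limma 3.58.1, R 4.3.3). The steps were filterByExpr, TMM, and 1 quasi-likelihood model of the 37 groups over 222 libraries. The model gave 16 comparisons of a strain with NB in Col-0, 16 in mutants, 4 of mutant NB with Col-0 NB and 16 differences of response. P-values were adjusted over 21635 genes in each comparison. CPM use TMM library sizes. DESeq2 1.42.0 and other filters, scalings, thresholds and sets of libraries were alternatives. The edgeR fit was tested on simulated data.

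Genes given in full were those called in 1 direction in at least 12 of the 16 Col-0 comparisons, the 5 largest changes with RMF27, and the 3 largest differences of response for gnom184 with RMF27 and arf7 arf19 with L344. Other genes come from lists of known roles or were chosen after their values were seen. The members and all lists were chosen with earlier results of these data known. All 59 identifiers matched the RefSeq gene table (TAIR10.1), 8 with a symbol, and sequences were read from that genome; coordinates are of that build only. The libraries high in shoot markers were left out as an alternative chosen after seeing the data.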

Additional observations from a re-analysis of the deposited data

Results flagged for a closer look

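In 2 of 43 groups of 6 libraries looked at for named genes, 1 library stood far from the others, about what chance gives at 1 in 20 groups. AT5G06720 (PA2) reached 13.2 CPM in Col-0 RMF27 replicate 4, while the other 5 lay between 9.35 and 10.5 CPM. AT5G64110 reached 6.32 CPM in Col-0 NB replicate 2, while the others lay between 3.01 and 3.94 CPM.

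In 6 cases a mutant's response to a strain differed from that of Col-0 by the test of the difference (edgeR, mutant minus Col-0, log2). With RMF27, gnom184 minus Col-0 was -1.67 for AT2G41480, -1.40 for AT3G49120 (PRXCB) and 1.57 for AT4G08780. With L344, arf7 arf19 minus Col-0 was -2.20 for AT4G08780, -1.43 for AT5G06730 and -1.32 for AT5G06720. These were the 3 largest called differences in each comparison.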

How the results depend on the processing

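The 9 counts followed here stayed within 1.5 times under DESeq2, RLE scaling, other low-count filters, fits on the compared groups alone, the range of the library number as a term, an adjusted p under 0.01, and without the 2 libraries with an open number or the 7 high in shoot markers. Asking also for a log2 change beyond 1 in size lowered them, by its construction: 17 members called in at least 1 Col-0 comparison, 5 higher and 0 lower in at least 8 of them, 13 higher and 2 lower with RMF27 in Col-0, 16 higher and 5 lower with RMF27 in gnom184, 10 called in arf7 arf19 NB, and 3 with a different response in gnom184 with RMF27. Leaving out 1 Col-0 NB library at a time gave 46 to 48 members called at least once, 11 to 16 higher and 6 to 8 lower in at least 8, 21 to 23 higher and 13 lower with RMF27, 36 to 38 in arf7 arf19 NB and 17 to 19 with a different response in gnom184 with RMF27. In fits added after seeing the data, leaving out 1 library at a time of the other groups compared gave 22 to 24 higher and 13 lower with RMF27 in Col-0, 27 to 30 higher and 14 to 16 lower in gnom184 with RMF27, 35 to 39 in arf7 arf19 NB and 16 to 20 with a different response. No named value changed sign. AT3G03670 with RMF27 was called by DESeq2 and without NB replicate 2. Genes near 1 CPM, such as PRXCA, are limited by depth. No paired analysis was possible because the labels give no repeat of the experiment and number no library within a group.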
